A study of Schmidtea mediterranea with 24 samples.

Results

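The planarian epidermal lineage was followed through 5 marker genes, *prog-1* (SMED30035904), *egr-5* (SMED30029873), *AGAT-1* (SMED30018353), *zpuf-3* (SMED30028142) and *zpuf-4* (SMED30018924). They are all the epidermal lineage markers for which the study's list of marker genes gives an identifier, 5 of the 16575 genes measured. Worms of *Schmidtea mediterranea* were fed double-stranded RNA against *fbl-1* or *fbl-2*, the planarian homologs of fibrillarin, a methyltransferase that modifies ribosomal RNA, and were collected at 48 h post amputation, with head, trunk and tail named as the tissue. Of the 4 groups, *fbl-1* KD was set against worms fed *egfp* RNA (*egfp* KD), and *fbl-2* KD had controls of its own, with the label *egfp* 2x KD. RNAi food was given at 4x for *fbl-1* and at 2x for *fbl-2*, in 5 feedings 3 days apart with 7 days of starvation. The strength of the food and the number of feedings of the plain *egfp* controls are not given in the sources used here. Each group had 3 replicates of 30 pooled worms, and each lysate was divided into 25% for RNA-seq and 75% for Ribo-seq, which sequences the fragments of mRNA that a ribosome protects (footprints). Nothing more is said about how independent the 3 pools of a group were, so p-values measure the spread between these pools.

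The planarian epidermis is renewed throughout life. Neoblasts, the dividing stem cells of the adult, give rise to post-mitotic progenitors that change their genes in steps while they move outward to the body surface. *prog-1* marks the early progenitors and *AGAT-1* the late ones. *egr-5* encodes a zinc-finger transcription factor of the EGR family that these progenitors need in order to differentiate, and *AGAT-1* encodes a relative of the amidinotransferase that starts creatine synthesis. *zpuf-3* and *zpuf-4* are counted by the study among the genes of *AGAT-1*+ cells. No sequence of these genes was available here, so none is shown.

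The values are reads per gene that were scaled by 1 factor per library and rounded, called scaled reads here. The totals were 8762055 to 9549828 scaled reads in the 12 mRNA libraries and 9116524 to 10763740 in the 12 footprint libraries. Each of the 4 tables (mRNA or footprints, *fbl-1* or *fbl-2* with its controls) was scaled apart, so a change is read only within a table. The columns of the footprint tables show the group, but the numbers in their names were not taken as replicate numbers. A footprint library therefore goes by its column name, such as fbl-1_1 or egfp-1. It was not paired with an mRNA library, although each lysate was divided between the assays. Each knockdown label goes with a higher, not a lower, level of its own target. In mRNA, *fbl-1* had 1383, 981 and 753 scaled reads in the libraries labelled *fbl-1* KD, against 143, 130 and 129 in *egfp* KD (log2 change 2.90, adjusted p = 3.41e-07). *fbl-2* had 481, 773 and 982 in the libraries labelled *fbl-2* KD, against 127, 135 and 144 in *egfp* 2x KD (log2 change 2.39, adjusted p = 0.000564). Their footprints were higher too (adjusted p = 0.0122 for *fbl-1*, lost without egfp-1 (0.0697) or fbl-1_3 (0.0836), and 1.99e-09 for *fbl-2*). The cause was not tested. Directions are therefore given for the libraries as they are labelled. Changes are on the scale of log2(scaled reads + 1), and adjusted p-values are those of limma, with a threshold of 0.05 after Benjamini-Hochberg adjustment over all genes tested.

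In the mRNA of the libraries labelled *fbl-1* KD, *prog-1* fell and *egr-5* rose, while *AGAT-1*, *zpuf-3* and *zpuf-4* did not pass the test. Thus 1 of 5 markers was called higher and 1 of 5 lower, where 2.59% of all 12965 genes tested were called higher and 2.45% lower. With library totals made equal, the split of these calls was 267 higher and 417 lower, against 336 and 318 as deposited. The 3 libraries of each group did not overlap for 3 of the 5 markers, with *egr-5* and *AGAT-1* above the controls and *prog-1* below them, where 23.7% of all genes tested showed no overlap in either direction. Once values were divided by library totals, the *AGAT-1* groups overlapped, while those of *egr-5* and of *prog-1* still did not. In the libraries labelled *fbl-2* KD no marker was called in mRNA (0 of 5, where 0.162% of all 12958 genes tested were called higher and 0.201% lower), and only *egr-5* had groups that did not overlap, where 15% of genes had none. At an unadjusted limma p under 0.05 the list of 5 held 1 marker in that comparison, *egr-5*, beside 9.93% of all genes tested.

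In footprints, no marker was called in the libraries labelled *fbl-1* KD, where 0.384% of all 12503 genes tested were called higher and 0.488% lower. There *prog-1* (adjusted p = 0.0527) and *zpuf-4* (adjusted p = 0.152) lay below the controls with no overlap, 2 of the 4 markers tested, where 23.7% of genes showed no overlap, and these were the 2 markers with an unadjusted limma p under 0.05, beside 15.2% of all genes tested. In the libraries labelled *fbl-2* KD, *egr-5* footprints rose and *zpuf-4* footprints fell, 1 of 5 markers in each direction, where 1.17% of all 12612 genes tested were called higher and 1.96% lower. *egr-5* above the controls and *AGAT-1* and *zpuf-4* below them had groups that did not overlap, 3 of 5, where 18.2% of genes had none. The median change of the markers tested was −0.28 for mRNA and −0.39 for footprints in *fbl-1* KD, and 0.13 for mRNA and −0.59 for footprints in *fbl-2* KD, beside medians over all genes tested of −0.01, 0.02, 0.00 and 0.02. The 2 footprint medians are over unlike sets. That of *fbl-1* KD is over 4 markers without *zpuf-3*, and that of *fbl-2* KD over 5 with *zpuf-3*, which had few footprints. In whole worms, fewer cells of a type and less RNA per cell cannot be told apart.

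**Figure D1:**
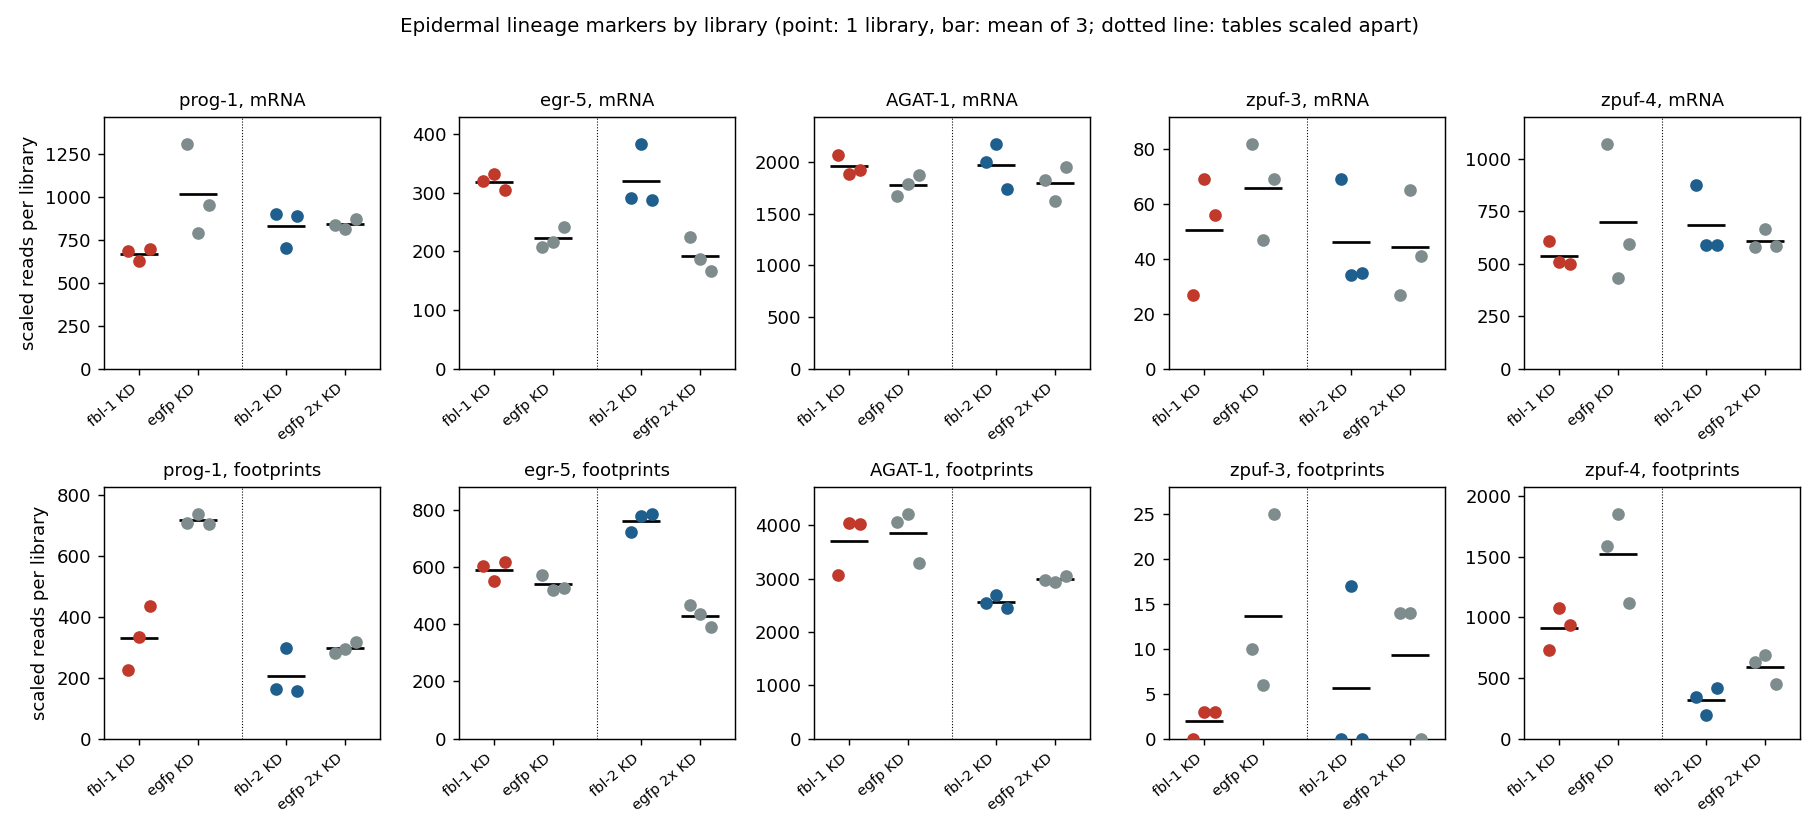
Scaled reads of the 5 epidermal lineage markers in each of the 24 libraries, with mRNA and footprints in separate panels. Points are libraries, bars are the mean of 3, and the dotted line parts the tables that were scaled apart. In mRNA, *prog-1* lies at 629 to 696 in *fbl-1* KD, against 791 to 1309 in *egfp* KD, and in footprints *egr-5* lies at 722 to 786 in *fbl-2* KD and at 389 to 466 in *egfp* 2x KD.

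*prog-1*, the marker of early progenitors, had 685, 629 and 696 scaled reads of mRNA in the libraries labelled *fbl-1* KD, against 1309, 791 and 951 in *egfp* KD. All 3 *fbl-1* KD libraries lay below all 3 controls, and *egfp* KD replicate 1 stood highest. The means were 670 ± 35.9 in *fbl-1* KD, against 1017 ± 265 in *egfp* KD (SD, n = 3 each), a log2 change of −0.57 (SE 0.15, 95% interval −0.90 to −0.25, adjusted p = 0.0427), or 1.49-fold lower. The spread of the controls was wide for this gene. The highest *egfp* KD library was 1.65 times the lowest, a wider range than for 92.9% of the genes compared in that group. The call depended on single libraries. It was kept without *egfp* KD replicate 2 (adjusted p = 0.00635), and it was lost without *egfp* KD replicate 1 (log2 change −0.37, adjusted p = 0.104) or 3 (0.102), and likewise without the libraries labelled *fbl-1* KD replicate 1 (0.131), 2 (0.1) or 3 (0.132).

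Footprints on *prog-1* also lay below the controls in the libraries labelled *fbl-1* KD. They had 227, 334 and 436 scaled reads in fbl-1_1, fbl-1_2 and fbl-1_3, against 709, 739 and 707 in egfp-1, egfp-2 and egfp-3. The lowest control was above the highest *fbl-1* KD library, and the controls lay within 1.05 times of each other. The log2 change of −1.16 (SE 0.23, 95% interval −1.67 to −0.65) had a limma p of 0.000519 and, over all genes, an adjusted p = 0.0527, just past the threshold. With 1 library left out, the change lay between −1.38 and −0.91 and the adjusted p between 0.0586 and 0.241. With a pseudocount of 10 it was 0.0460 and with a minimum of 50 scaled reads 0.0491, so that the gene then passed.

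In the libraries labelled *fbl-2* KD the mRNA of *prog-1* overlapped its controls, with 900, 705 and 889 scaled reads in *fbl-2* KD and 839, 814 and 873 in *egfp* 2x KD. The log2 change was −0.03 (SE 0.14, 95% interval −0.33 to 0.27, adjusted p = 0.97). Its footprints had 164, 299 and 157 scaled reads in fbl-2_1, fbl-2_2 and fbl-2_3, against 282, 295 and 317 in egfp_2x_1, egfp_2x_2 and egfp_2x_3. Libraries fbl-2_1 and fbl-2_3 lay below every control and fbl-2_2 lay among them. The log2 change was −0.59 (SE 0.29, 95% interval −1.19 to 0.01, adjusted p = 0.375).

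*egr-5*, the transcription factor of post-mitotic progenitors, had higher values than the control mean in every one of the 4 comparisons. Its mRNA had 320, 331 and 305 scaled reads in the libraries labelled *fbl-1* KD, against 207, 216 and 242 in *egfp* KD. No library of one group reached the other. The means were 319 ± 13.1 in *fbl-1* KD, against 222 ± 18.2 in *egfp* KD (SD, n = 3 each), a log2 change of 0.52 (SE 0.14, 95% interval 0.23 to 0.82, adjusted p = 0.0423), or 1.44-fold. The call was lost without any single library, with an adjusted p of 0.0660 to 0.136 and a log2 change of 0.48 to 0.59. It was also lost with library totals made equal (adjusted p = 0.0683).

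In *fbl-2* KD, *egr-5* mRNA had 290, 383 and 288 scaled reads, against 225, 187 and 166 in *egfp* 2x KD. The groups did not overlap, and the means were 320 ± 54.3 in *fbl-2* KD and 193 ± 29.9 in *egfp* 2x KD (SD, n = 3 each). The log2 change of 0.73 (SE 0.18, 95% interval 0.34 to 1.11) did not pass (adjusted p = 0.145, and 0.110 to 0.439 with 1 library left out).

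The footprints of *egr-5* were called in 1 of the 2 knockdowns. In *fbl-1* KD they had 604, 550 and 618 scaled reads, against 573, 520 and 527 in *egfp* KD, and the groups overlapped (log2 change 0.13, SE 0.15, adjusted p = 0.715). In *fbl-2* KD they had 722, 778 and 786 scaled reads, against 466, 436 and 389 in *egfp* 2x KD. Each *fbl-2* KD library was far above each control, with means of 762 ± 34.9 in *fbl-2* KD and 430 ± 38.8 in *egfp* 2x KD (SD, n = 3 each). The log2 change of 0.83 (SE 0.17, 95% interval 0.47 to 1.18, adjusted p = 0.00565) was a 1.77-fold rise. It passed in all 6 fits with 1 library left out, with an adjusted p of 0.00752 to 0.0427, and was lost only, among the alternatives tried, in limma without a mean trend (0.314), where 2 genes in all were called.

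**Figure D2:**
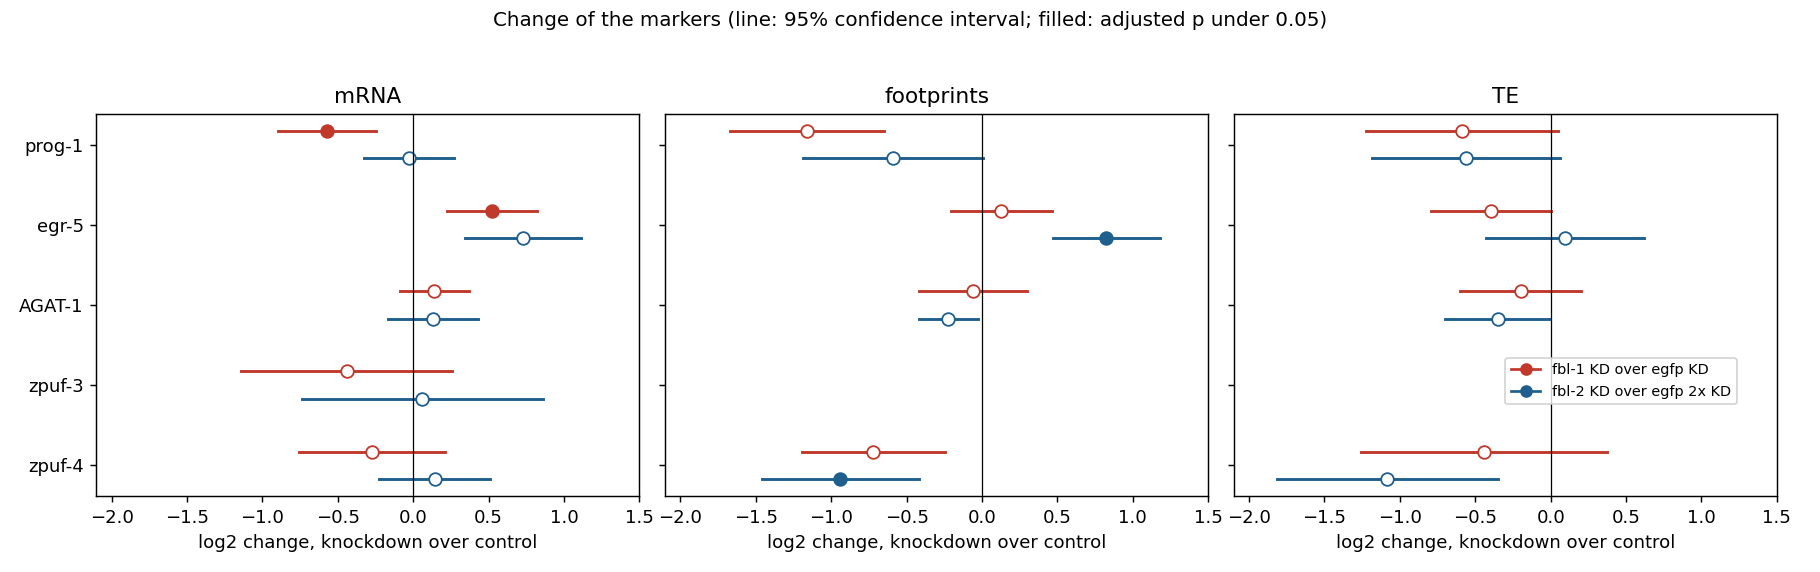
Log2 change of each marker in mRNA, footprints and translation efficiency (TE, the change in footprints beyond that in mRNA), for *fbl-1* KD against *egfp* KD and for *fbl-2* KD against *egfp* 2x KD. Points are limma estimates with 95% intervals, and filled points have an adjusted p under 0.05. The filled points are *prog-1* (−0.57) and *egr-5* (0.52) in *fbl-1* KD mRNA and *egr-5* (0.83) and *zpuf-4* (−0.94) in *fbl-2* KD footprints, and *zpuf-3* is drawn for mRNA alone because its footprints were near 0.

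*AGAT-1*, the marker of late progenitors, was not called in any comparison. Its mRNA had 2066, 1890 and 1923 scaled reads in the libraries labelled *fbl-1* KD, against 1673, 1786 and 1875 in *egfp* KD. The groups did not overlap, with the nearest libraries at 1890 and 1875, and the log2 change of 0.14 (SE 0.11, 95% interval −0.09 to 0.37) did not pass (adjusted p = 0.501). This separation depended on the library totals. As a share of its library, *AGAT-1* mRNA was lower in *fbl-1* KD replicates 2 and 3 than in *egfp* KD replicate 3. In *fbl-2* KD *AGAT-1* mRNA had 2001, 2178 and 1739 scaled reads, against 1824, 1621 and 1955 in *egfp* 2x KD, with overlapping groups (log2 change 0.13, SE 0.14, adjusted p = 0.814).

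*AGAT-1* footprints had 3062, 4052 and 4029 scaled reads in *fbl-1* KD, against 4069, 4214 and 3295 in *egfp* KD, and fbl-1_1 and egfp-3 were the low libraries of their groups. The log2 change was −0.06 (SE 0.16, 95% interval −0.42 to 0.30, adjusted p = 0.89). In *fbl-2* KD they had 2552, 2685 and 2449 scaled reads, against 2969, 2938 and 3053 in *egfp* 2x KD. All 3 *fbl-2* KD libraries were below all 3 controls. The log2 change was −0.22 (SE 0.10, 95% interval −0.42 to −0.02), and it did not pass over all genes (adjusted p = 0.293).

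*zpuf-3* was the marker with the fewest reads. Its mRNA had 27, 69 and 56 scaled reads in the libraries labelled *fbl-1* KD, against 82, 47 and 69 in *egfp* KD, and 69, 34 and 35 in *fbl-2* KD, against 27, 65 and 41 in *egfp* 2x KD. The groups overlapped in both, with log2 changes of −0.44 (SE 0.33, adjusted p = 0.492) and 0.06 (SE 0.37, adjusted p = 0.975). Its footprints had 0, 3 and 3 scaled reads in *fbl-1* KD, against 10, 6 and 25 in *egfp* KD, too few to be tested. In *fbl-2* KD they had 0, 17 and 0 scaled reads, against 14, 14 and 0 in *egfp* 2x KD, and the log2 change of −1.21 had an SE of 2.34, so that no difference was detectable at this depth.

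*zpuf-4* had groups that overlapped in mRNA and did not overlap in footprints, in both knockdowns. Its mRNA had 608, 509 and 498 scaled reads in the libraries labelled *fbl-1* KD, against 1072, 430 and 594 in *egfp* KD (log2 change −0.28, SE 0.23, adjusted p = 0.536). The highest *egfp* KD library was 2.49 times the lowest, a wider range than for 99.5% of the genes compared in that group, and *egfp* KD replicate 1 was again the high one, as for *prog-1*. In *fbl-2* KD the mRNA had 878, 588 and 589 scaled reads, against 581, 665 and 584 in *egfp* 2x KD (log2 change 0.14, SE 0.17, adjusted p = 0.844).

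The footprints of *zpuf-4* had 729, 1073 and 936 scaled reads in *fbl-1* KD, against 1585, 1851 and 1117 in *egfp* KD. The groups did not overlap, though fbl-1_2 and egfp-3 lay close together. The log2 change was −0.72 (SE 0.21, 95% interval −1.20 to −0.24, adjusted p = 0.152, and 0.0516 to 0.413 with 1 library left out). In *fbl-2* KD the footprints had 344, 195 and 414 scaled reads, against 633, 686 and 453 in *egfp* 2x KD. Again no library of one group reached the other. The log2 change of −0.94 (SE 0.25, 95% interval −1.46 to −0.42, adjusted p = 0.0391) was 1.92-fold lower. It was lost without fbl-2_2 (log2 change −0.62, adjusted p = 0.103), egfp_2x_1 (0.229) or egfp_2x_2 (0.200), and kept without fbl-2_1 (0.0325), fbl-2_3 (0.0129) or egfp_2x_3 (0.0290).

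**Figure D3:**
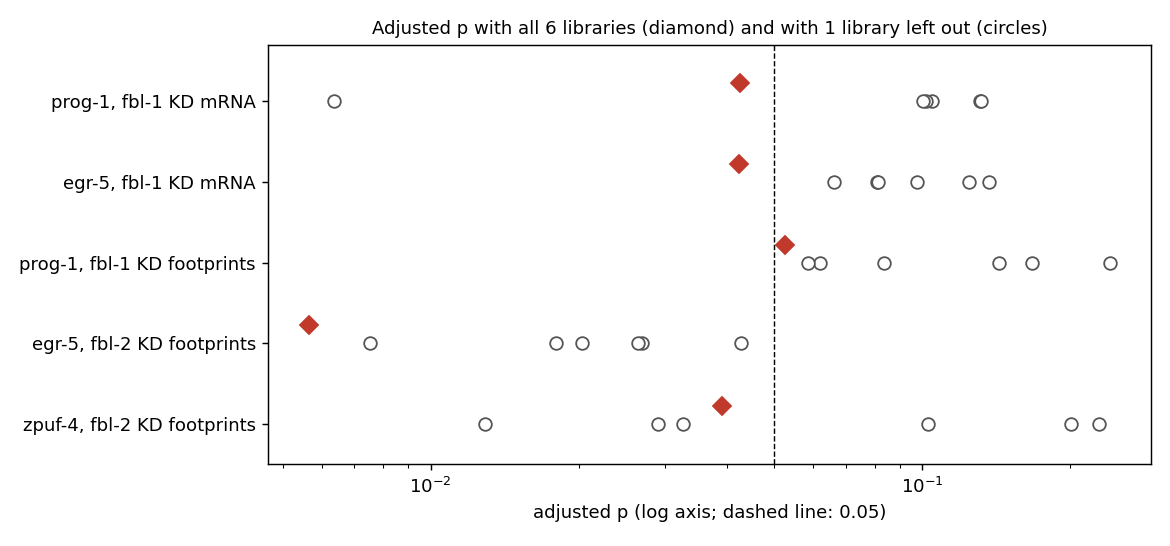
Adjusted p of 5 marker comparisons with all 6 libraries (diamonds) and with each library left out in turn (circles), on a log axis with the threshold of 0.05 drawn as a line. The circles of *egr-5* footprints in *fbl-2* KD all lie below the line (0.00752 to 0.0427), those of *egr-5* mRNA in *fbl-1* KD all lie above it (0.0660 to 0.136), and those of *prog-1* mRNA in *fbl-1* KD and *zpuf-4* footprints in *fbl-2* KD fall on both sides.

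The footprint tables were scaled separately, so the levels of 4 markers, all but *zpuf-3*, are set side by side here without a test. The share of all genes whose control levels differ between these tables was not computed. No change is read from the levels or from their order across tables. *prog-1* footprints were 707 to 739 scaled reads in *egfp* KD and 282 to 317 in *egfp* 2x KD. *zpuf-4* footprints were 1117 to 1851 in *egfp* KD and 453 to 686 in *egfp* 2x KD. *egr-5* footprints were 520 to 573 in *egfp* KD and 389 to 466 in *egfp* 2x KD, and those of *AGAT-1* were 3295 to 4214 in *egfp* KD and 2938 to 3053 in *egfp* 2x KD. For *prog-1* the order of the group means in footprints was *egfp* KD (718), *fbl-1* KD (332), *egfp* 2x KD (298) and *fbl-2* KD (207), where the ranges of the last 3 overlapped. For *egr-5* the order was *fbl-2* KD (762), *fbl-1* KD (591), *egfp* KD (540) and *egfp* 2x KD (430), where the 2 in the middle overlapped.

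TE was compared as the change in footprints beyond the change in mRNA over the 12 libraries of a knockdown and its controls. No marker passed in *fbl-1* KD (0 of 4) or in *fbl-2* KD (0 of 5), and the share of all genes tested that passed was 0% in both, with 608 genes in *fbl-1* KD and 712 in *fbl-2* KD at an unadjusted limma p under 0.05. The TE estimates of all 4 markers tested in *fbl-1* KD were below 0. Of all 12243 genes tested there, 6307 had an estimate above 0. So had 34 of 117 further genes annotated to the epidermis alone and 506 of 1232 annotated to other cell types. The estimates of the markers are given next. They were −0.59 (SE 0.30) for *prog-1*, −0.40 (SE 0.19) for *egr-5*, −0.20 (SE 0.19) for *AGAT-1* and −0.44 (SE 0.38) for *zpuf-4*, with adjusted p-values of 0.877 to 0.905. In *fbl-2* KD, *zpuf-4* had the estimate farthest from 0 relative to its error, −1.08 (SE 0.35, 95% interval −1.81 to −0.35, adjusted p = 0.814). *AGAT-1* had −0.35 (SE 0.16), *prog-1* −0.56 (SE 0.29), *egr-5* 0.10 (SE 0.25) and *zpuf-3* −1.28 (SE 1.74). At an unadjusted limma p under 0.05 the markers numbered 0 of 4 in *fbl-1* KD and 2 of 5 in *fbl-2* KD, *AGAT-1* and *zpuf-4*, beside 4.97% and 5.76% of all genes tested.

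A call in one knockdown and not in the other does not show a difference between them, so the difference itself was tested, as the change in *fbl-1* KD minus that in *fbl-2* KD, each against its own controls. No marker passed for mRNA (0 of 5, where 0.159% of all 13244 genes tested were called) or for footprints (0 of 5, where 0.107% of 13100 were). At an unadjusted limma p under 0.05 there was 1 of 5 in each, *prog-1* for mRNA and *egr-5* for footprints, beside 5.27% and 6.12% of all genes tested. The difference for *prog-1* mRNA was −0.54 (SE 0.22, 95% interval −1.01 to −0.08, adjusted p = 0.884). That for *egr-5* footprints was −0.70 (SE 0.22, 95% interval −1.15 to −0.24, adjusted p = 0.571). For *egr-5* mRNA the difference was −0.20 (SE 0.22, 95% interval −0.66 to 0.25), and for *AGAT-1* it was 0.01 in mRNA (95% interval −0.33 to 0.36) and 0.16 in footprints (95% interval −0.22 to 0.55).

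A ratio of 2 markers within a library does not depend on the factor by which that library was scaled. The log2 ratio of *egr-5* to *prog-1* was higher than in the controls in all 4 comparisons, with no overlap of the groups. For mRNA it averaged −1.07 ± 0.13 in *fbl-1* KD, against −2.16 ± 0.43 in *egfp* KD, and −1.38 ± 0.43 in *fbl-2* KD and −2.13 ± 0.25 in *egfp* 2x KD (SD, n = 3 each). For footprints it averaged 0.88 ± 0.47 in *fbl-1* KD, against −0.41 ± 0.10 in *egfp* KD, and 1.94 ± 0.50 in *fbl-2* KD and 0.53 ± 0.22 in *egfp* 2x KD. The differences were 1.10 (SE 0.26) and 0.76 (SE 0.29) for the mRNA of *fbl-1* KD and of *fbl-2* KD, and 1.29 (SE 0.28) and 1.42 (SE 0.31) for their footprints. These are descriptions with no test. Each difference combines the changes of *egr-5* and *prog-1* given above, so it is not separate evidence. How often other pairs of genes show no overlap was not computed.

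The ratio of the late marker *AGAT-1* to the early marker *prog-1* stood apart from the controls in *fbl-1* KD alone, though the difference between the knockdowns in this ratio was not tested. It averaged 1.55 ± 0.07 in *fbl-1* KD, against 0.84 ± 0.43 in *egfp* KD for mRNA, and 3.52 ± 0.28 in *fbl-1* KD, against 2.42 ± 0.17 in *egfp* KD for footprints, with no overlap. In *fbl-2* KD it overlapped the controls, at 1.25 ± 0.34 in *fbl-2* KD and 1.09 ± 0.09 in *egfp* 2x KD for mRNA and at 3.69 ± 0.46 in *fbl-2* KD and 3.32 ± 0.06 in *egfp* 2x KD for footprints. In *fbl-1* KD, *AGAT-1* itself changed by 0.14 in mRNA and −0.06 in footprints, and *prog-1* by −0.57 and −1.16. The higher ratio of *AGAT-1* to *prog-1* there thus largely restates the lower *prog-1* values. The ratios of *zpuf-3* and *zpuf-4* to *prog-1* overlapped their controls in all 4 comparisons.

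**Figure D4:**
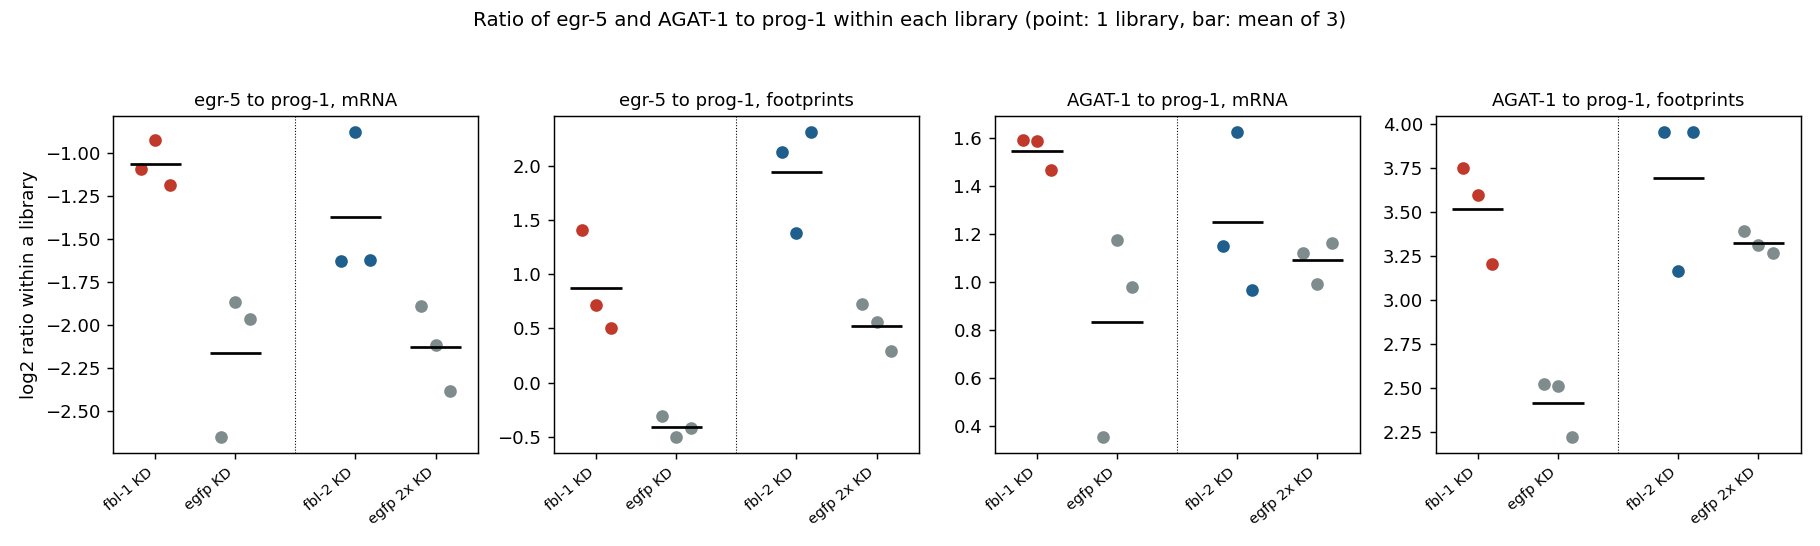
Log2 ratio of *egr-5* to *prog-1* and of *AGAT-1* to *prog-1* within each library, for mRNA and footprints. Points are libraries and bars are the mean of 3. All libraries labelled *fbl-1* KD lie above all *egfp* KD libraries for both ratios and both assays, while the *fbl-2* KD libraries lie above the *egfp* 2x KD libraries for *egr-5* alone.

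The stem cells above this lineage were read through the 3 neoblast markers of the study, *piwi-1*, the PIWI protein gene of neoblasts, *vasa-1*, an RNA helicase, and *MCM2*, part of the replication helicase. Their summed mRNA was 11938 to 12837 scaled reads in *fbl-1* KD, against 17823 to 19215 in *egfp* KD, and their summed footprints were 10214 to 12517 in *fbl-1* KD, against 16761 to 20853 in *egfp* KD. Of the 3, 2 fell in mRNA and 1 fell in footprints, where 2.45% and 0.488% of all genes tested were called lower. Leaving out a library lowered the mRNA count to 1 (control replicate 2 or 3, or knockdown replicate 2) or to 0 (knockdown replicate 1 or 3), and the footprint count to 0 (egfp-1 or egfp-2 of the controls, fbl-1_2 or fbl-1_3 of the knockdown). In *fbl-2* KD none of the 3 was called, with sums of 14797 to 16936 in *fbl-2* KD and 17534 to 18275 in *egfp* 2x KD for mRNA, and of 12384 to 12654 in *fbl-2* KD and 13709 to 14917 in *egfp* 2x KD for footprints. None of the 3 was at 0 in any library. The sums lay below their controls with no overlap in both knockdowns and both assays. A sum weighs the 3 markers by their reads. In *fbl-2* KD, 1 of the 3 had a log2 change above 0 in each assay, with medians of −0.16 for mRNA and −0.12 for footprints. In *fbl-1* KD none had, with medians of −0.43 for mRNA and −0.70 for footprints. The log2 change of *prog-1* was −0.57 for mRNA and −1.16 for footprints in *fbl-1* KD, and −0.03 and −0.59 in *fbl-2* KD. The part of the neoblast markers in the change of *prog-1* was not tested.

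The study's wound response genes, transcripts that amputation induces, were also summed, and 7 of the 8 listed were in the tables. None was called in any of the 4 comparisons. Of all genes tested, 5.04% were called in mRNA and 0.872% in footprints in *fbl-1* KD, and 0.363% and 3.12% in *fbl-2* KD. The median changes of the 7 wound response genes were −0.08 for mRNA and −0.10 for footprints in *fbl-1* KD and −0.21 and −0.14 in *fbl-2* KD. Their summed mRNA was 4987 to 5251 scaled reads in *fbl-1* KD, against 5587 to 6324 in *egfp* KD, and 4267 to 5033 in *fbl-2* KD, against 5439 to 5673 in *egfp* 2x KD. Their summed footprints were 6114 to 6620 in *fbl-1* KD, against 6774 to 7361 in *egfp* KD, and 6200 to 7321 in *fbl-2* KD, against 7103 to 7656 in *egfp* 2x KD.

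Beyond the 5 markers, 123 genes are annotated by the study to the epidermis alone among the entries held here. Those entries are the upper part of lists sorted by change, so a share of calls among them is read only beside the held entries of other cell types. In the mRNA of *fbl-1* KD 118 were tested, and 14 rose and 9 fell (19.5%), beside 20.4% of the entries of other cell types. In footprints 3 rose and 1 fell of 119 (3.36%, beside 2.88%). In *fbl-2* KD 1 rose and none fell of 120 in mRNA (0.833%, beside 2.08%), and 4 rose and 4 fell of 119 in footprints (6.72%, beside 7.23%). Their summed mRNA was 64995 to 68157 scaled reads in *fbl-1* KD, against 53013 to 62705 in *egfp* KD. In *fbl-2* KD it was 69854 to 79918, against 58751 to 60652 in *egfp* 2x KD. Their summed footprints overlapped the controls in both knockdowns. The sums were not divided by library totals, and none was made for the entries of other cell types. Median mRNA changes were 0.23 in *fbl-1* KD and 0.36 in *fbl-2* KD, beside 0.24 and 0.13 for those other entries. The counts of calls moved with single libraries. In *fbl-1* KD mRNA the 14 rises became 6 when knockdown replicate 3 was left out, and 7 when knockdown replicate 1 or control replicate 3 was. The 9 falls became 3 and 4 when knockdown replicate 1 and 3 were left out, and 5 and 2 when control replicate 1 and 3 were. The 4 footprint calls in *fbl-1* KD were lost when fbl-1_2, fbl-1_3, egfp-1 or egfp-2 was left out, and without egfp-3 the 1 fall became 3. In *fbl-2* KD footprints the 4 rises became 7 without fbl-2_2 and 2 without egfp_2x_1, and the 4 falls became 0 without fbl-2_1, egfp_2x_1 or egfp_2x_2, 1 without fbl-2_3 and 2 without egfp_2x_3. The single rise in *fbl-2* KD mRNA was lost without any *egfp* 2x KD replicate or *fbl-2* KD replicate 1, and without *fbl-2* KD replicate 3 there were 2 rises and 1 fall. In limma without a mean trend the rises and falls were 3 and 1 in *fbl-1* KD mRNA, 0 and 0 in its footprints, 0 and 0 in *fbl-2* KD mRNA and 1 and 0 in its footprints. With no filter they were 8 and 7 in *fbl-1* KD mRNA, with a replicate block 9 and 5, with a pseudocount of 10 the fall in *fbl-1* KD footprints became 2, and with library totals made equal the rise in *fbl-2* KD mRNA was lost.

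The 6 called epidermal genes with a name and the smallest p-values in *fbl-1* KD mRNA were *MARS*, *RARS*, *EPRS*, *LMNA*, *SARS* and *KIF1A*, of which 4 match aminoacyl-tRNA synthetases, the enzymes that load tRNAs for translation. *MARS*, the best match of the methionine enzyme, had 2215, 2222 and 2078 scaled reads in *fbl-1* KD, against 776, 844 and 975 in *egfp* KD (2.52-fold, adjusted p = 6.54e-06). *RARS*, the arginine enzyme, had 1696, 1719 and 1705 in *fbl-1* KD, against 864, 1014 and 915 in *egfp* KD (log2 change 0.88, adjusted p = 0.000277). *EPRS*, which loads glutamate and proline, averaged 2508 ± 174 in *fbl-1* KD, against 1359 ± 94.7 in *egfp* KD, and *SARS*, the serine enzyme, 1120 ± 37.5 in *fbl-1* KD, against 719 ± 65.0 in *egfp* KD (SD, n = 3 each). A lamin match, *LMNA* (SMED30002072), averaged 567 ± 29.2 in *fbl-1* KD, against 328 ± 15.5 in *egfp* KD. These 5 genes passed in all 6 fits with 1 library left out. *KIF1A*, a kinesin motor (219 ± 38.1 in *fbl-1* KD, against 125 ± 14.6 in *egfp* KD, adjusted p = 0.0178), did not pass when control replicate 3 (0.0890) or knockdown replicate 1 (0.112) was left out.

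Footprints were called higher, as the mRNA was, for 2 of these enzymes, while those of *EPRS* and *SARS* did not pass the threshold. *RARS* footprints had 1845, 1923 and 1865 scaled reads in *fbl-1* KD, against 1006, 904 and 830 in *egfp* KD (log2 change 1.04, adjusted p = 0.0124). *MARS* footprints averaged 2085 ± 66.0 in *fbl-1* KD, against 1041 ± 125 in *egfp* KD (1.01, adjusted p = 0.0155). *STK3*, a kinase of the Hippo pathway, rose in the footprints of both knockdowns. It had 1971, 1586 and 1712 scaled reads in *fbl-1* KD, against 937, 1003 and 1020 in *egfp* KD (0.83, adjusted p = 0.0303), and 1803, 2323 and 1999 in *fbl-2* KD, against 1318, 1128 and 1274 in *egfp* 2x KD (0.71, adjusted p = 0.00102). The 3 footprint calls in *fbl-1* KD were lost when fbl-1_2, fbl-1_3, egfp-1 or egfp-2 was left out, with an adjusted p of up to 0.0862 for *RARS*, 0.146 for *MARS* and 0.221 for *STK3*. *LPA*, a match to apolipoprotein(a), had 513, 349 and 480 scaled reads of footprints in *fbl-2* KD, against 101, 127 and 240 in *egfp* 2x KD (1.59, SE 0.31, adjusted p = 0.00271). It and *STK3* passed in all 6 fits of *fbl-2* KD with 1 library left out.

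Of the other epidermal matches chosen by name, which include relatives of *AGAT-1* and *egr-5* by family, none passed in mRNA or footprints. A further glycine amidinotransferase match, *GATM* (SMED30009513), had mRNA changes of 0.32 in *fbl-1* KD (adjusted p = 0.115) and 0.25 in *fbl-2* KD (0.648), and footprint changes of −0.18 (0.648) and −0.15 (0.584). Both EGR matches had mRNA estimates above 0, with 0.83 (adjusted p = 0.163) in *fbl-1* KD and 1.57 (0.267) in *fbl-2* KD for *EGR1*, and 0.41 (0.372) and 0.51 (0.481) for *EGR4*. Their footprint estimates were 0.92 (0.668) and 0.81 (0.859) for *EGR1*, and −0.23 (0.768) and 0.74 (0.578) for *EGR4*. *EGR1* had few reads, so its estimates are uncertain. In *fbl-2* KD its mRNA had 25, 49 and 39 scaled reads, against 5, 21 and 14 in *egfp* 2x KD. Its footprints there had 8, 16 and 33, against 0, 32 and 28 in *egfp* 2x KD (SE of the log2 change 1.42). *SOX8*, a transcription factor match, had footprint changes of −0.66 (0.118) in *fbl-1* KD and −0.13 (0.887) in *fbl-2* KD, and mRNA changes of 0.17 (0.669) and 0.55 (0.362). *ELF3*, of the ETS family of transcription factors, had mRNA changes of 0.47 (0.101) and 0.22 (0.783) and footprint changes of 0.13 (0.788) and −0.06 (0.957). The other lamin match, *LMNA* (SMED30028789), had 0.30 (0.207) and 0.67 (0.161) in mRNA and −0.36 (0.397) and 0.43 (0.455) in footprints. *LMNA* (SMED30002072), called in *fbl-1* KD mRNA above, had 0.43 (0.287) in *fbl-2* KD mRNA and 0.60 (0.379) and 0.30 (0.536) in the footprints of *fbl-1* KD and of *fbl-2* KD.

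The genes most like each marker were taken by Pearson correlation of the 12 libraries of an assay, each value set against the mean of its table, among the genes with a name and a mean of at least 100 scaled reads. The libraries share their group, their scaling and the worms they came from, so these are descriptions with no test. For *egr-5*, the closest in mRNA were *THADA* (0.93), *ACTG1*, an actin annotated to the epidermis (0.92), and *MUC6*, a mucin match (0.91). In footprints they were *fbl-2* itself (0.93), *EIF5*, an initiation factor (0.90), and *RASEF* (0.88). These correlations take in the difference between a knockdown and its controls. Footprints of *fbl-2*, a knockdown target, had 1830, 4232 and 2293 scaled reads in *fbl-2* KD, against 294, 315 and 308 in *egfp* 2x KD. For *prog-1* they were *SNRPA*, a spliceosome protein annotated to neoblasts (0.95), *NSFL1C* (0.83) and *PANK4* (0.82) in mRNA, and *PSMB3*, a proteasome subunit (0.94), *TMEM14C* (0.92) and *AKR1A1* (0.92) in footprints. For *AGAT-1* they were *PDE2A* (0.96), the titin match *TTN* (0.93) and *BEST1* (0.92) in mRNA, and *CPN1*, annotated to the epidermis (0.93), *PLOD1* (0.92) and *ETNK2* (0.92) in footprints. For *zpuf-4* they were *RPL27A* (0.89), *FTH1* (0.89) and *UQCRH* (0.87) in mRNA and *MYEF2* (0.97), *P4HA2* (0.96) and *NPEPL1* (0.91) in footprints. For *zpuf-3* mRNA they were *ATP6V1F* (0.81), *PSMA1* (0.79) and *GLRX5* (0.76). Genes without a name were left out, and some were closer. Among all 9070 genes compared in mRNA, the named genes ranked 2, 41 and 56 for *prog-1*, 37, 38 and 52 for *zpuf-4*, and 96, 130 and 191 for *zpuf-3*. Among the markers themselves, *prog-1* and *zpuf-4* had correlations of 0.74 in mRNA and 0.48 in footprints, *prog-1* and *egr-5* −0.56 and −0.48, *prog-1* and *AGAT-1* −0.52 and 0.59, and *egr-5* and *AGAT-1* 0.64 and −0.55. Those of *egr-5* and *zpuf-4* were −0.15 in mRNA and −0.65 in footprints, of *AGAT-1* and *zpuf-4* −0.21 and 0.58, of *prog-1* and *zpuf-3* 0.43 and 0.72, and of *zpuf-3* and *zpuf-4* 0.49 and 0.26. *zpuf-3* with *egr-5* (−0.27 and −0.21) and with *AGAT-1* (−0.41 and 0.30) completes the 10 pairs, and its footprints lay near 0.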

How the data were processed

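RNA-seq and Ribo-seq were made from 12 lysates. According to the study, footprints of 30 to 40 nt were made with RNase A under cycloheximide, reads were trimmed with Cutadapt and Sickle, rRNA reads were taken out, and unique Tophat2 alignments to a transcriptome were counted with featureCounts. The signal values deposited by the authors are whole numbers, but not raw counts: 9 of the 24 libraries lack at least 1 whole number between 1 and 15, as reads scaled by 1 factor per library and rounded would. They are not TPM, which the study names. The study tested with deltaTE.

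Here log2(value + 1) was fitted with limma-trend (limma 3.58.1, R 4.3.3) over genes with at least 10 in at least 3 libraries (for TE, in each assay), two-sided, with p-values adjusted by Benjamini-Hochberg over all genes tested. A model of counts was not used. TE was the interaction of knockdown and assay over libraries taken as unpaired, although each lysate was divided between the assays. With 3 against 3 an exact permutation test cannot give a p below 0.1, so none was run. The fits were tested on simulated data. All columns were used, and no 2 libraries were identical.

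Named genes were the 5 markers, the targets, the 3 named genes most like each marker, up to 6 called epidermis-annotated genes with the smallest p per comparison, and epidermal matches to *GATM*, *EGR1*, *EGR4*, *SOX8*, *ELF3* and *LMNA*. The entries held of the study's annotation cover 3495 genes, 2299 of them with a name. Footprint correlates of *zpuf-3*, which lay near 0, are not shown. The lists were the epidermal, neoblast and wound response markers and the epidermis-annotated genes. Members and lists were chosen with earlier results of these data known. Alternatives were the pseudocount, the filter, the scaling, the mean trend, a replicate block and leaving out each library. The depth of a library before scaling is unknown, so no interval for counting error is given.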

Additional observations from a re-analysis of the deposited data

How the results depend on the processing

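Over 38 marker results, 584 alternatives were fitted. The side of the threshold was kept in 559, a call was lost in 23 and gained in 2, and no called change turned its sign, although estimates near 0 that were not called could. The 2 marker calls in *fbl-1* KD mRNA became 0 with no filter (adjusted p 0.0733 for *prog-1* and 0.0578 for *egr-5*) and 0 without a mean trend (0.208 and 0.112), 1 with library totals made equal (*prog-1*), and 0 to 1 with 1 library left out. The 0 calls in *fbl-1* KD footprints became 1 (*prog-1*) with a pseudocount of 10 or a minimum of 50. The 2 calls in *fbl-2* KD footprints became 1 with no filter (*zpuf-4* at 0.0630), 0 without a mean trend and 1 to 2 with 1 library left out. Counts of marker calls in *fbl-2* KD mRNA, in TE and in the difference between knockdowns stayed at 0 in every alternative, including a TE filter over both assays together that was chosen after seeing the data.

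Over all genes, the calls without a mean trend were 49 (654 with it) in *fbl-1* KD mRNA, 0 (109) in *fbl-1* KD footprints, 2 (47) in *fbl-2* KD mRNA, 2 (394) in *fbl-2* KD footprints, and 11 (21) and 0 (14) in the difference of mRNA and of footprints. With 1 library left out they were 182 to 838, 0 to 172, 13 to 91, 187 to 559, 11 to 18 and 5 to 30, and 0 to 10 for TE in *fbl-2* KD (0 with all). The causes were not tested.

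The replicate numbers of the mRNA libraries did not pair them: same-numbered libraries had correlations of their deviations of −0.137 to 0.047 in the *fbl-1* arm and −0.390 to −0.150 in the *fbl-2* arm. A replicate block left 1 marker call (*prog-1* at 0.0434, *egr-5* at 0.0900) and 413 gene calls in *fbl-1* KD mRNA, 0 and 13 in *fbl-2* KD mRNA, and 0 and 8 in the difference of mRNA.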
